A study of Rattus norvegicus with 399 samples.

Results

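DNA repair and replication factor genes were followed in the tissues of female rats exposed to 1,2-dichlorobenzene (1,2-DCB) or 1,4-dichlorobenzene (1,4-DCB), isomers that differ in the positions of the chlorine atoms on the benzene ring. The set was taken from the symbols on a targeted expression panel by a rule on names, chosen with earlier results of these data known. It holds every probe for a gene named Rad with a digit, Xrcc, Ercc, Brca, Fanc, Msh, Mlh, Pola, Polb, Pold, Pole, Rfc, Parp or Lig with a digit, together with Rpa1, Rpa2, Rpa3, Atm, Atr, Chek1, Chek2 and Fen1. The rule found 29 probes for 29 genes among the 2654 probes of the panel. It found no gene with an Ercc, Msh or Mlh name, and neither Atm nor Atr.

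The rats were 9-week-old Sprague-Dawley females, and heart, kidney, liver (left lobe), lung and ovary were taken on study day 5. 1,2-DCB was given at 1, 10, 30, 100, 250 or 500 ppm and 1,4-DCB at 1, 10, 50, 150, 400 or 800 ppm, and each compound had its own controls at 0 ppm. A group held 10 control or 5 exposed rats, apart from 9 controls in the 1,2-DCB kidney, 8 controls in the 1,4-DCB lung, 4 exposed rats in 1,2-DCB lung at 500 ppm, 1,4-DCB kidney at 1 ppm and 1,4-DCB lung at 1, 10 and 150 ppm, and 3 in 1,4-DCB lung at 400 ppm. Each library was made from 1 tissue of 1 rat with TempO-Seq, in which pairs of detector oligos are ligated on the RNA and counted by sequencing. Of 399 libraries, 390 carried no quality mark and were used.

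During replication, replication protein A (Rpa1, Rpa2 and Rpa3) coats single-stranded DNA, replication factor C (Rfc subunits) loads the sliding clamp, the polymerases alpha, delta and epsilon copy the strands, and Fen1 and Lig1 finish the lagging strand. Several of these proteins also work in repair, where Parp1, Parp2, Xrcc1 and Polb act on single-strand breaks and damaged bases, Lig4 joins broken ends, and Rad51c, Brca1 and Fancd2 act in recombination and crosslink repair. Chek1, Chek2 and Rad9a belong to the checkpoints that hold the cell cycle when DNA is damaged or replication stalls. In the adult liver most hepatocytes are not dividing, and genes of S phase are transcribed at low levels until cells enter the cycle. The name rule also took genes with other main roles: Rad21 is a cohesin subunit, Rad18 a ubiquitin ligase of translesion synthesis, and Parp9, Parp12 and Parp14 are ADP-ribosyltransferase family members best known as interferon-inducible genes.

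The promoters of 4 replication genes that carry a motif of E2F, the factor family of S phase genes, and that were called higher in liver are shown, with the promoter of Parp14, which was called lower. RefSeq promoters (GRCr8, 250 bases before to 50 bases after the annotated start) were found for 24 of the 29 members. Each printed sequence covers 200 bases before to 30 bases after the start, 5′ to 3′ on the gene's strand, with the motif in capitals. The E2F motif on the gene's strand reads as its reverse complement, for example GCGCCAAA for TTTGGCGC. Pole, the catalytic subunit of polymerase epsilon, is at chr12:52053633-52053862 (minus strand); Pola1, the catalytic subunit of polymerase alpha, at chrX:62342326-62342555 (minus strand). Rpa2 is at chr5:150260572-150260801 (plus strand), Lig1 at chr1:83242970-83243199 (plus strand) and Parp14 at chr11:78407934-78408163 (plus strand). In Parp14 the capitals mark the letters GAAA, any pair of bases and GAAA, the core of the interferon-stimulated response element, which was added after the values were seen.
Pole: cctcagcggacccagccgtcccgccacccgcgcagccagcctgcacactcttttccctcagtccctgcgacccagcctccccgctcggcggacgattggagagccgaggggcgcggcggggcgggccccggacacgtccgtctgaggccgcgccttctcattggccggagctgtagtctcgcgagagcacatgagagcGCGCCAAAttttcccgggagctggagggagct
Pola1: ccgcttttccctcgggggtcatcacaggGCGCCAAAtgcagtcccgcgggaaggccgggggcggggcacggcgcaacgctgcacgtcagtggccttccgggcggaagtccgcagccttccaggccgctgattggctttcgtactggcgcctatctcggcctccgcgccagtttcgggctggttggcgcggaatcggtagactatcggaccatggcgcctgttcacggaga
Rpa2: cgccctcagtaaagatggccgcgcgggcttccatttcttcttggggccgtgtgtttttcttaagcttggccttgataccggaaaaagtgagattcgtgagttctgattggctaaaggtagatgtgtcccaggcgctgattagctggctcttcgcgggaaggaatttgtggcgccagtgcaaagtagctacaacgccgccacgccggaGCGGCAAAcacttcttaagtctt
Lig1: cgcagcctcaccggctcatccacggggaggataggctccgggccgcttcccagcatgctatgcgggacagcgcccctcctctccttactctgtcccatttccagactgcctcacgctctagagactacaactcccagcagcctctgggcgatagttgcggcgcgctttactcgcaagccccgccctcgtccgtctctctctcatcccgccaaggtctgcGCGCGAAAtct
Parp14: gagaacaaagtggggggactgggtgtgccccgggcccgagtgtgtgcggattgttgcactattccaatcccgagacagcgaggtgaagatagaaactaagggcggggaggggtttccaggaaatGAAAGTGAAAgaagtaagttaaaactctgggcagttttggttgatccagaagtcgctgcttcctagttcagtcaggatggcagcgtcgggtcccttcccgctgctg

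The E2F motif was searched as TTTCCCGC, TTTCGCGC, TTTGCCGC and TTTGGCGC on both strands of the 300-base window. It was found in 7 of 24 members (29.2%: Chek1, Fancd2, Lig1, Pola1, Pole, Pole2 and Rpa2), in 4.16% of 2021 promoters of genes on the panel and in 2.14% of 33469 promoters in the table. It was in 4 of the 13 members with a promoter that were higher with either compound (30.8%) and in 3 of the other 11 (27.3%). Those 11 include genes too low for the test in liver, and Fancd2 and Pole2, of the 3 with the motif, are among these. CCAAT on either strand was in 9 of 24 members (37.5%) and in 37.5% of all promoters. The antioxidant response element core TGACNNNGC was in 2 of 24 members (8.33%, Chek1 and Rfc4) and in 12.1% of all promoters. The core of the interferon-stimulated response element was in 2 of 24 members (8.33%, Parp12 and Parp14) and in 3.92% of all promoters. These are matches of letters in a window, described without a test.

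Library totals, in units of 1e+06 counts, were 1.2 to 69.8 (median 22.6). In unexposed rats the markers of each tissue were at their highest in that tissue: the summed hepatocyte list was at 553400 CPM (counts scaled to a total of 1e+06 per library) or more in every liver and at most 10860 elsewhere. The panel holds no lung epithelium marker of the list used, so the lung label was not checked in this way. In the liver libraries the 29 members summed to 2348 to 9073 counts, and 23 of the 29 passed the filter on low counts there. Rfc2 had 92 counts in 27 of the 390 libraries and was tested nowhere, and Fancd2, Pold4, Pole2 and Xrcc1 were tested in other tissues but not in liver. In what follows, a level is in CPM after normalization within 1 tissue and compound, a change is a log2 fold change against that compound's controls with its standard error, and a gene is called higher or lower where edgeR's quasi-likelihood test gave a Benjamini-Hochberg adjusted p below 0.05 over all probes tested.

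Most calls of members were made in liver. Over 60 comparisons with controls (2 compounds, 5 tissues and 6 concentrations), 39 of 1590 member tests gave a call, in 8 comparisons, where 3.3% of all probe tests did. Of these 39 calls, 36 were in liver. A large part of the 4389 calls over all probes lay in liver too. There were 707 higher and 661 lower at 500 ppm of 1,2-DCB, and 393 higher and 311 lower at 800 ppm of 1,4-DCB. At 500 ppm of 1,2-DCB 14 of the 23 members tested in liver were higher and 4 were lower, where 35% of all probes tested were higher and 32.7% lower. At 800 ppm of 1,4-DCB 10 of 23 were higher and none was lower, against 19.5% of all probes higher and 15.4% lower. The median change of the tested members was 0.49 with 1,2-DCB and 0.37 with 1,4-DCB, and the median of all probes tested was 0.03 and -0.00. With library totals in place of trimmed-mean (TMM) scaling factors, the members gave 17 higher and 1 lower with 1,2-DCB (50.4% and 19.7% of all probes) and 14 higher and 0 lower with 1,4-DCB (23.2% and 9.21%). Genes higher with both compounds numbered 9: Rpa1, Rpa2, Rfc4, Rfc5, Pole, Lig1, Parp1, Brca1 and Rad18. In bulk tissue, fewer cells of a type and less RNA per cell cannot be told apart.

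**Figure D1:**
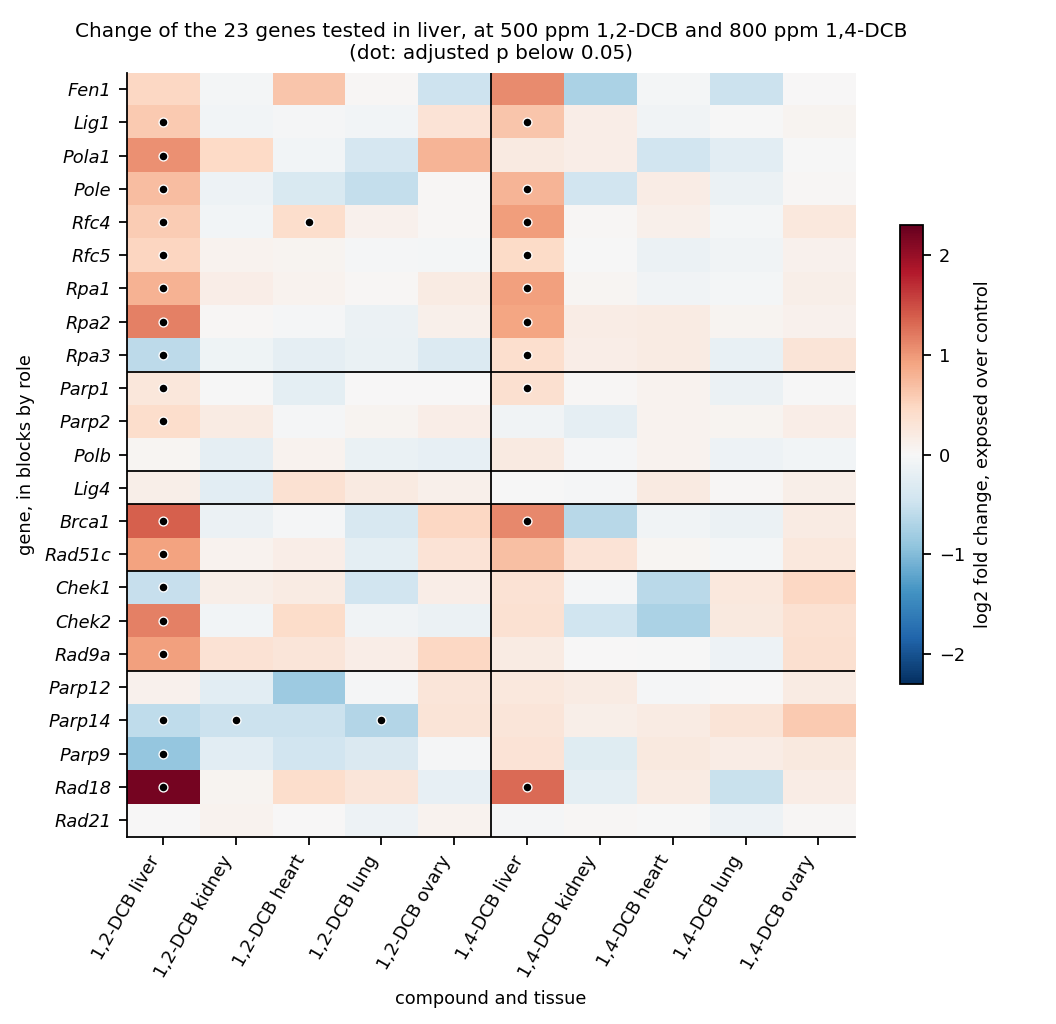
Log2 fold change of each of the 23 genes tested in liver (rows, in blocks by role) at the top concentration of each compound in each tissue (columns); colour gives the change and a dot marks an adjusted p below 0.05. The dots lie in the liver columns except for Rfc4 in heart and Parp14 in kidney and lung with 1,2-DCB.

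Of the 12 replication fork genes, 9 were tested in liver, and 7 were higher with each compound. Rpa1, the large DNA-binding subunit of replication protein A, was the 1 member fully separated from controls at the top concentration of both compounds. Its level was 4.79, 5.47 and 6.76 CPM (lowest, median and highest) in the 10 controls of 1,2-DCB, and 9.65, 9.58, 9.12, 8.56 and 11 CPM in the 5 rats at 500 ppm. In the 10 controls of 1,4-DCB it was 4.62, 5.31 and 6.02 CPM, and 8.98, 9.91, 10.0, 13.4 and 8.77 CPM in the 5 rats at 800 ppm. Every exposed rat lay above every control with both compounds, as did 19.3% and 8.62% of all probes tested. The change was 0.80 ± 0.10 (adjusted p = 5.4e-09, edgeR) with 1,2-DCB and 0.95 ± 0.10 (adjusted p = 5.7e-10) with 1,4-DCB.

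Rpa2, the subunit phosphorylated after damage, was also higher with both. With 1,2-DCB its controls were at 0.347, 0.615 and 0.866 CPM, a median of 22 counts, and the rats at 500 ppm were at 1.41, 1.21, 1.56, 1.21 and 1.43 CPM. All 5 exposed rats were above the controls, by 1.16 ± 0.23 on the log2 scale (adjusted p = 3.1e-05). With 1,4-DCB the controls were at 0.399, 0.549 and 0.992 CPM and the rats at 800 ppm at 0.764, 1.38, 1.11, 1.58 and 0.988 CPM. Here 2 of 5 exposed rats lay within the control range, and the change was 0.91 ± 0.22 (adjusted p = 0.00125).

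Rpa3, the small subunit of the same trimer, went opposite ways. With 1,2-DCB its controls were at 9.73, 10.6 and 16.7 CPM and the rats at 500 ppm at 11.5, 6.09, 6.82, 5.88 and 6.77 CPM. Rat F601 lay among the controls and the other 4 lay below all of them; the change was -0.60 ± 0.15 (adjusted p = 0.00051). With 1,4-DCB the controls were at 8.71, 10.9 and 17.3 CPM and the rats at 800 ppm at 13.5, 16.5, 14.5, 17.7 and 11.6 CPM, a change of 0.38 ± 0.12 (adjusted p = 0.0116) with overlapping groups. The call of a fall with 1,2-DCB depends on the scaling: with library totals it was -0.22 (adjusted p = 0.178), and the median of all probes moved from 0.03 to 0.44. The call of a rise with 1,4-DCB was lost without rat F602 (adjusted p = 0.0575) or F604 (adjusted p = 0.0674). Because the concentrations differ, the compounds are set side by side here and their difference was not tested.

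**Figure D2:**
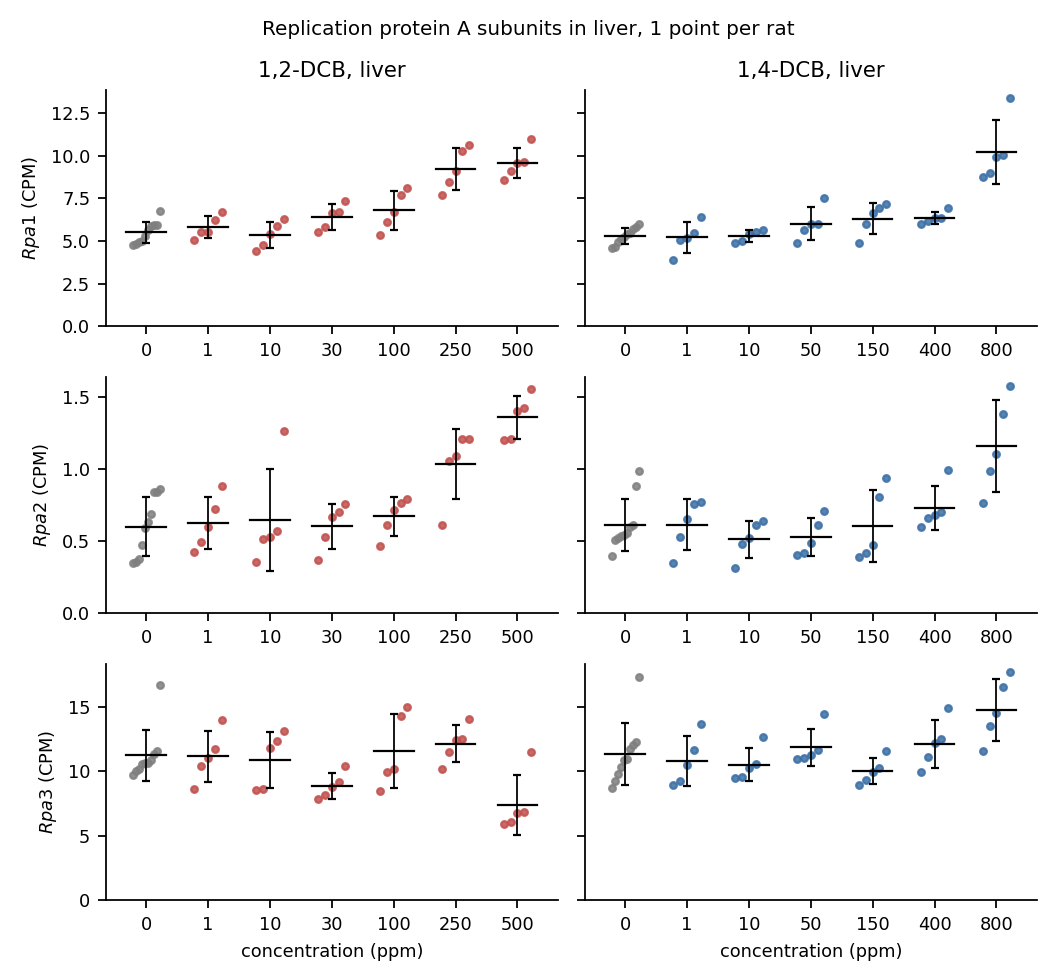
Level in CPM (vertical axis, from 0) of Rpa1, Rpa2 and Rpa3 in each liver library against concentration in ppm (horizontal axis, not to scale); points are rats, the long bar is the mean and the short bars ± 1 SD. Rpa1 and Rpa2 are higher at the top concentration of both compounds, and Rpa3 is lower in 4 of 5 rats at 500 ppm of 1,2-DCB.

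The clamp loader subunits Rfc4 and Rfc5 were higher with both compounds. Rfc5 was at 9.64, 10.7 and 12.4 CPM in the controls of 1,2-DCB and at 15.1, 14.2, 14.9, 12.2 and 19.5 CPM at 500 ppm; 4 of 5 exposed rats were above all controls (change 0.49 ± 0.09, adjusted p = 1.1e-05). Rfc4 was at 1.18, 1.51 and 1.98 CPM in the controls of 1,4-DCB and at 1.57, 2.70, 3.94, 4.32 and 2.28 CPM at 800 ppm, with 1 exposed rat inside the control range (change 0.95 ± 0.18, adjusted p = 3.9e-05). The change of Rfc4 at 500 ppm of 1,2-DCB was 0.59 ± 0.14 (adjusted p = 0.0004), and that of Rfc5 at 800 ppm of 1,4-DCB was 0.43 ± 0.08 (adjusted p = 5.8e-05).

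Lig1, which seals nicks between Okazaki fragments, and Pole followed. Lig1 rose by 0.60 ± 0.20 at 500 ppm of 1,2-DCB (adjusted p = 0.00832), from 0.616 to 1.08 CPM across the controls to 1.38, 1.14, 1.33, 1.09 and 1.57 CPM, all above the controls. It rose by 0.63 ± 0.23 at 800 ppm of 1,4-DCB (adjusted p = 0.0319), where 2.32 CPM in rat F604 stood out; without that rat the change was 0.34 (adjusted p = 0.314), and the call was also lost without rat F603 or control F4 (adjusted p = 0.0691 and 0.0567). Pole rose by 0.72 ± 0.25 with 1,2-DCB (adjusted p = 0.0122) and by 0.78 ± 0.31 with 1,4-DCB (adjusted p = 0.0467). The 1,4-DCB call for Pole was lost without any 1 of 10 libraries, with adjusted p up to 0.184 without rat F602. Pola1 was called with 1,2-DCB at 1.05 ± 0.42 (adjusted p = 0.0257; 0.0554 without rat F601 and 0.0658 without F605), and stood at 0.20 with 1,4-DCB, not called. Fen1, the flap nuclease, was not called with either (0.48 and 1.10), at a control median of 0.104 and 0.0772 CPM.

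**Figure D3:**
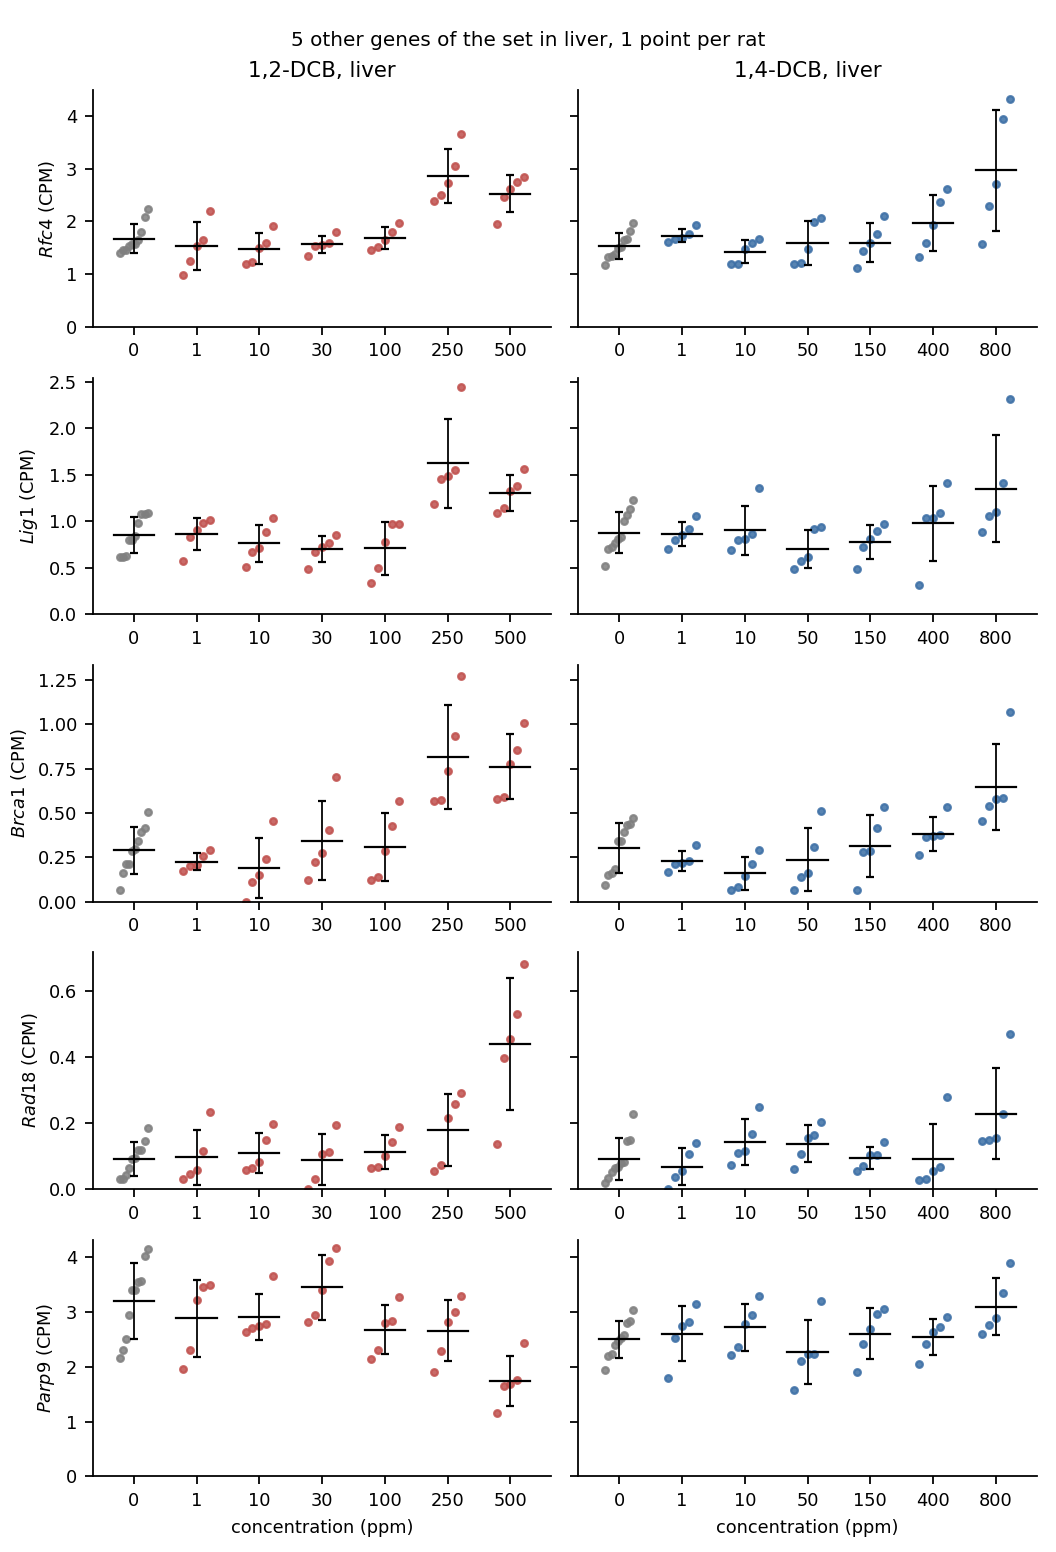
Level in CPM (vertical axis, from 0) of Rfc4, Lig1, Brca1, Rad18 and Parp9 in each liver library against concentration in ppm (horizontal axis, not to scale); points are rats, the long bar is the mean and the short bars ± 1 SD. Rfc4, Lig1, Brca1 and Rad18 are higher at the top concentration of both compounds, and Parp9 is lower in 4 of 5 rats at 500 ppm of 1,2-DCB.

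In base excision and single-strand break repair, Parp1, the main sensor of strand breaks, was higher with both compounds and Parp2, its close relative, with 1,2-DCB. Parp1 was at 4.11, 5.66 and 6.62 CPM in the controls of 1,4-DCB and at 6.75, 8.17, 6.85, 6.08 and 8.40 CPM at 800 ppm; 4 of 5 exposed rats were above the controls (change 0.37 ± 0.10, adjusted p = 0.00405). At 500 ppm of 1,2-DCB its controls were at 4.95, 5.95 and 8.15 CPM and the exposed rats at 8.96, 6.66, 7.01, 7.71 and 6.33 CPM, a change of 0.25 ± 0.10 (adjusted p = 0.028) with 4 of 5 rats inside the control range. That call was lost without rat F601 (adjusted p = 0.128), rat F604 (0.0523) or control F4 (0.0537). Parp2 changed by 0.41 ± 0.15 with 1,2-DCB (adjusted p = 0.0133) and by -0.08 with 1,4-DCB, not called. Polb, the short-patch gap-filling polymerase, was not called (0.04 and 0.20), nor was the end-joining ligase Lig4 (0.14 and -0.00).

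In homologous recombination Brca1, which acts in the resection of broken ends, was higher with both. With 1,2-DCB its controls were at 0.0630, 0.291 and 0.506 CPM (median 11 counts) and the rats at 500 ppm at 0.855, 0.777, 1.01, 0.579 and 0.588 CPM, all above the controls (change 1.38 ± 0.38, adjusted p = 0.00157). With 1,4-DCB the controls were at 0.0957, 0.342 and 0.471 CPM and the rats at 800 ppm at 0.454, 0.541, 1.07, 0.583 and 0.579 CPM (change 1.10 ± 0.36, adjusted p = 0.0143). Rat F603 was the highest, and without it the change was 0.82 (adjusted p = 0.106). Rad51c, which acts in the same pathway, changed by 0.92 ± 0.32 at 500 ppm of 1,2-DCB (adjusted p = 0.00996; 0.0796 without rat F603) and by 0.69 at 800 ppm of 1,4-DCB (adjusted p = 0.0603).

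Pole2, the second subunit of polymerase epsilon, was too low in liver for the test there. Its counts, not scaled for library totals, are given instead. It had 0 to 6 counts in the 10 controls of 1,2-DCB and 14, 11, 17, 6 and 2 counts in the rats at 500 ppm. It had 0 to 8 counts in the controls of 1,4-DCB and 12, 4, 11, 25 and 17 counts at 800 ppm. The counts of Pole2 lay above all controls in 3 of 5 and 4 of 5 exposed rats. Those of Fancd2, Pold4 and Xrcc1, also not tested in liver, lay mostly within the control range. With 1,2-DCB Fancd2 had 0 to 6 counts in controls and 4, 7, 7, 4 and 2 at 500 ppm. Pold4 had 0 to 11 and 0, 2, 7, 16 and 9, and Xrcc1 0 to 4 and 5, 0, 4, 5 and 3. With 1,4-DCB Fancd2 had 0 to 10 in controls and 4, 12, 6, 7 and 10 at 800 ppm. Pold4 had 0 to 9 and 1, 3, 13, 7 and 11, and Xrcc1 0 to 20 and 2, 0, 9, 3 and 5.

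The checkpoint genes did not move as 1 group. With 1,2-DCB Rad9a, a subunit of the 9-1-1 clamp, was at 0.333, 0.544 and 0.818 CPM in controls and at 1.49, 1.16, 1.2, 0.495 and 1.26 CPM at 500 ppm, with 4 of 5 rats above the controls (change 0.94 ± 0.25, adjusted p = 0.00109). The kinase Chek2 was at 0.0886, 0.203 and 0.483 CPM in controls and at 0.469, 0.474, 0.475, 0.724 and 0.700 CPM at 500 ppm (change 1.15 ± 0.35, adjusted p = 0.00428). Chek1, the kinase downstream of stalled forks, was lower at -0.53 ± 0.21 (adjusted p = 0.0247), with 1.36, 2.17 and 3.33 CPM in controls and 1.88, 1.12, 1.82, 0.953 and 1.96 CPM at 500 ppm. That call was lost with library totals (-0.13, adjusted p = 0.59), without control F9 (adjusted p = 0.0523) and without rat F602 or F604 (adjusted p = 0.0961 and 0.13). At 800 ppm of 1,4-DCB none of the 3 was called: Rad9a stood at 0.19, Chek2 at 0.36 and Chek1 at 0.33.

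Rad18 had the largest called change of the set in liver with both compounds. Its controls were at 0.0298, 0.0936 and 0.185 CPM for 1,2-DCB, a median of 4 counts, and the rats at 500 ppm were at 0.138, 0.455, 0.684, 0.398 and 0.532 CPM. Rat F601 lay among the controls and the other 4 above them (change 2.20 ± 0.42, adjusted p = 1.9e-05). At 800 ppm of 1,4-DCB it was at 0.145, 0.150, 0.469, 0.227 and 0.153 CPM against 0.0190, 0.0728 and 0.227 CPM in controls (change 1.3 ± 0.47, adjusted p = 0.0276). Only rat F603 was above the controls, and without it the change was 0.85 (adjusted p = 0.212). The call was also lost without rat F604 (adjusted p = 0.0515) or control F3 (adjusted p = 0.0505).

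The interferon-inducible Parp9 and Parp14 were lower in liver at 500 ppm of 1,2-DCB. Parp9 was at 2.15, 3.40 and 4.15 CPM in controls and at 2.43, 1.76, 1.16, 1.64 and 1.68 CPM at 500 ppm; 4 of 5 rats lay below the controls (change -0.89 ± 0.17, adjusted p = 2.3e-05). Parp14 was at 3.22, 4.54 and 7.83 CPM in controls and at 3.5, 3.30, 3.63, 3.52 and 2.60 CPM at 500 ppm, with 4 of 5 rats inside the control range (change -0.58 ± 0.15, adjusted p = 0.00071). With library totals Parp9 was still called lower and Parp14 was not (-0.17, adjusted p = 0.319). At 800 ppm of 1,4-DCB both pointed the other way without a call, Parp9 at 0.31 (adjusted p = 0.0791) and Parp14 at 0.29 (adjusted p = 0.0669). Parp12, of the same family, and Rad21 were not called with either compound (0.10 and 0.24 for Parp12, 0.00 and -0.03 for Rad21).

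Markers of other cell types were also called in the same livers, on TMM scaling. Of all probes 32.7% were lower and 35% higher at 500 ppm of 1,2-DCB. At 800 ppm of 1,4-DCB 15.4% were lower and 19.5% higher, and some of the counts below lie near these shares. The erythroid markers were called in opposite directions with the isomers, with overlapping summed levels in both. The concentrations differ, and that difference was not tested. At 500 ppm of 1,2-DCB 4 of 5 lymphocyte markers tested were lower, their summed level going from 4.95 to 7.19 CPM across controls to 2.31 to 3.72 CPM across exposed rats. The 4 macrophage markers were all lower (47.8 to 69.1 against 24.8 to 35.9 CPM), as were 2 of 4 endothelial markers (27.4 to 35.4 against 17.9 to 23.6 CPM), 2 of 3 fibroblast markers (87.6 to 161 against 37.4 to 86.03 CPM) and both erythroid markers (70.2 to 195 against 34.1 to 93.2 CPM). Of the 8 hepatocyte markers 7 were lower and 1 higher (552800 to 799100 against 498600 to 635800 CPM). At 800 ppm of 1,4-DCB 1 of 5 lymphocyte markers was lower (4.18 to 7.04 against 3.67 to 4.36 CPM), as were 3 of 4 macrophage markers (46.4 to 64.25 against 42.4 to 55.8 CPM), 1 of 4 endothelial markers (27.4 to 37.1 against 18.3 to 23.7 CPM) and 1 of 4 fibroblast markers (98 to 159 against 70.5 to 94.8 CPM). Both erythroid markers were higher there (65.04 to 208 against 101.9 to 296 CPM), and of the 8 hepatocyte markers 3 were lower and 1 higher (550100 to 617000 against 500200 to 685200 CPM). No probe of these lists was at 0. Their part in the changes of the repair and replication genes was not tested.

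The response in liver appeared at the upper concentrations. With 1,2-DCB 6 members were higher at 250 ppm, where 13.5% of all probes were: Rpa1 (0.75, adjusted p = 3.5e-07), Rfc4 (0.77), Lig1 (0.92), Brca1 (1.48), Rpa2 (0.77) and Pole (0.69, adjusted p = 0.0416). Rpa1 was at 10.6, 10.2, 7.70, 8.43 and 9.08 CPM at 250 ppm, all above the controls. Rfc4 was at 3.05, 3.65, 2.39, 2.72 and 2.50 CPM against a highest control of 2.23 CPM. Lig1 was at 1.48, 2.44, 1.45, 1.56 and 1.19 CPM against a highest control of 1.08 CPM. With Brca1, these 4 genes had every exposed rat above every control at 250 ppm, as did 6.54% of all probes. The call for Pole was lost without rat F501, F502 or F504 (adjusted p = 0.0537, 0.127 and 0.159).

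All 6 genes were also higher at 500 ppm. At 100 ppm Parp14 alone was called, lower at -0.65, where 0.644% of all probes were lower. It was not called at 250 ppm (-0.30, adjusted p = 0.134), and the call at 100 ppm was lost when only that group and its controls were fitted (adjusted p = 0.0808). With library totals 13 members were higher at 250 ppm, where 38.4% of all probes were, and the median of all probes moved from -0.02 to 0.31.

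With 1,4-DCB the only member called below 800 ppm was Rad51c at 400 ppm (0.91 ± 0.29, adjusted p = 0.0487), where 4.75% of all probes were higher. Its rats were at 0.462, 0.975, 0.366, 0.626 and 0.934 CPM and its controls at 0.130 to 0.601 CPM. The groups overlapped, and the call was lost without rat F502, F504 or F505 (adjusted p = 0.258, 0.0702 and 0.132) and in 4 of 7 other settings. The median change of the 9 replication fork genes was 0.17 at 400 ppm and 0.78 at 800 ppm. With 1,2-DCB the same median was 0.04 at 100 ppm, 0.75 at 250 ppm and 0.60 at 500 ppm. For all probes tested it lay between -0.02 and 0.03 at every one of these concentrations.

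**Figure D4:**
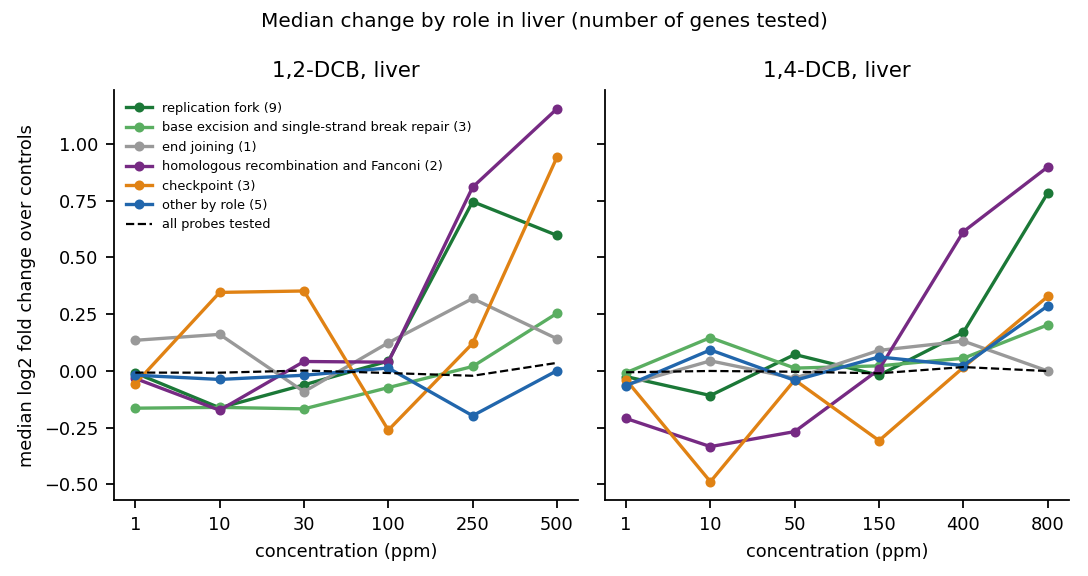
Median log2 fold change over controls in liver (vertical axis) of the members of each role at each concentration in ppm (horizontal axis, not to scale), with the number of genes tested in the legend and all probes tested as a dashed line. The replication fork line leaves the dashed line at 250 ppm of 1,2-DCB and at 800 ppm of 1,4-DCB; lines of 1 to 3 genes vary more.

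Genes of related pathways outside the set were also called in liver, where 35% of all probes were higher at 500 ppm of 1,2-DCB and 19.5% at 800 ppm of 1,4-DCB. Of 19 S phase and licensing genes tested at 500 ppm of 1,2-DCB 16 were higher and 1 lower, among them the helicase subunits Mcm2 (1.42) and Mcm3 (2.15) and the thymidylate synthase Tyms (0.97). At 800 ppm of 1,4-DCB 14 of 18 were higher and none lower, with the licensing inhibitor Gmnn at 1.69 and Mcm3 at 1.93. All 10 genes of G2 and mitosis tested were higher at both (median 1.81 and 2.36). Of the other repair factors 5 of 11 were higher with 1,2-DCB, with Apex1, the abasic-site endonuclease, at 1.43, Nhej1 at 1.51 and Topbp1 at 2.70, and 3 of 11 with 1,4-DCB (Apex1 0.73, Topbp1 0.81 and H2afx 1.74). The p53 targets gave 7 higher and 1 lower of 10 with 1,2-DCB, among them Bax (1.06) and Aen (1.89). Mdm2 had the smallest p of these calls and was also called higher at 250 ppm of 1,2-DCB. At 800 ppm of 1,4-DCB 2 of 10 p53 targets were higher and 1 lower (Mdm2 0.54, Gadd45a 0.47 and Sesn2 -0.70). With 1,4-DCB the counts of the repair and p53 lists lie near the share of all probes, as does that of the repair list with 1,2-DCB.

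Outside the liver 3 member calls were made, all at 500 ppm of 1,2-DCB. Parp14 in kidney was at 6.97, 9.69 and 13 CPM in the 9 controls and at 7.27, 5.88, 7.23, 7.23 and 7.71 CPM in the exposed rats (change -0.50 ± 0.15, adjusted p = 0.0212), where 7.7% of all probes were lower. In lung it was at 11.4, 19.9 and 23.9 CPM in controls and at 12.2, 10.1, 13.4 and 11.95 CPM in the 4 exposed rats (change -0.67 ± 0.17, adjusted p = 0.00856), where 4.68% were lower. The groups overlapped in both tissues, with every exposed rat below the control median. The kidney call was lost without control F8 (adjusted p = 0.0511) or rat F602 (adjusted p = 0.0734). With 1,2-DCB Parp14 stood at -0.49 in heart (adjusted p = 0.0878) and at 0.29 in ovary (adjusted p = 0.378), not called in either. Its call in liver, as given above, was lost with library totals.

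Lymphocyte markers were lower in 2 of 6 probes in that kidney (summed 16.5 to 22.2 against 10.2 to 11.9 CPM) and in 0 of 7 in the lung (117.6 to 295 against 92.3 to 200 CPM). Macrophage markers were lower in 2 of 4 in kidney (791 to 1112 against 451 to 825 CPM), and 1 of 4 was higher in lung (56290 to 92250 against 72810 to 101000 CPM). Fibroblast markers were lower in 2 of 5 in kidney (682 to 1121 against 292 to 490 CPM) and in 3 of 5 in lung (1767 to 3173 against 846.5 to 1189 CPM), with no overlap of the summed levels in either tissue. Of 4 endothelial markers 1 was lower in kidney (284 to 491 against at most 247 CPM) and none in lung (982 to 1816 against 1104 to 1733 CPM). The 2 erythroid markers were not called in either tissue, with a summed level in lung of 5679 to 15960 against 3502 to 5453 CPM. No probe of these lists was at 0, and their part in the level of Parp14 was not tested. With 1,4-DCB Parp14 was not called at 800 ppm in kidney (0.14) or lung (0.30, adjusted p = 0.21).

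Rfc4 in heart was at 8.45, 12 and 13.7 CPM in controls and at 17.4, 12.8, 13.5, 17.6 and 16.1 CPM at 500 ppm of 1,2-DCB. The change was 0.41 ± 0.13 (adjusted p = 0.0274), where 5.16% of all probes were higher, and 3 of 5 rats were above the controls. The call was lost with library totals (adjusted p = 0.142) and without control F9, rat F601, F604 or F605 (adjusted p = 0.0513, 0.0715, 0.0997 and 0.0671). Fibroblast markers were lower in 4 of 5 probes in that heart (2128 to 3455 against 776 to 1079 CPM), as were 1 of 3 cardiomyocyte, 1 of 5 lymphocyte and 1 of 4 endothelial markers. Their part in the level of Rfc4 was not tested.

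No member was called in ovary at 500 ppm of 1,2-DCB (2.91% of all probes called) or in kidney, heart, lung and ovary at 800 ppm of 1,4-DCB (5.03%, 6.86%, 5.91% and 8.47%) by edgeR's quasi-likelihood test. At an unadjusted p under 0.05 there were 6 members in the ovary with 1,2-DCB and 2, 0, 1 and 3 in the others. The share of all probes under that unadjusted threshold was not taken, so these counts cannot be set against it. DESeq2 also called none in these 5 comparisons, and limma voom called 1 in the 1,4-DCB ovary. The G2 and mitosis genes outside the set had lower calls in most of these tissues, and their difference from liver was not tested. With 1,2-DCB the lower calls were 4 of 13 (kidney), 5 of 12 (heart), 4 of 15 (lung) and 0 of 17 (ovary), and with 1,4-DCB 4 of 13, 4 of 11, 6 of 16 and 1 of 17, with none higher. Of all probes 7.7%, 6.79%, 4.68% and 1.39% were lower with 1,2-DCB and 2.67%, 3.8%, 3.04% and 4.23% with 1,4-DCB.

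Whether the change in liver differed from that in another tissue was tested in 1 fit over all tissues of a compound, in which 28 members were tested. With 1,2-DCB at 500 ppm the change in liver was higher than in kidney for 6 and lower for 2 members (21.3% and 18.8% of all probes). Against heart it was 5 and 2 (18.6% and 20%), against lung 8 and 2 (18.2% and 20.7%) and against ovary 6 and 4 (20.5% and 20.9%). With 1,4-DCB at 800 ppm the members were higher in 5, 4, 6 and 4 and lower in none (6.46%, 7.63%, 6.5% and 9.24% of all probes higher, 5.13%, 7.2%, 8.81% and 11.9% lower). With 1,2-DCB the members' share of higher calls was near that of all probes against kidney, heart and ovary. These counts include members that passed the filter of the joint fit through other tissues and were too low for the test in liver. Over the 23 members tested in liver the higher calls were 5, 3, 6 and 5 with 1,2-DCB (kidney, heart, lung and ovary) and 4, 3, 5 and 3 with 1,4-DCB, and the lower calls were as before. With library totals no lower call was left, and the higher calls of the 28 members were 18, 18, 18 and 14 with 1,2-DCB (41.8%, 37.5%, 35.8% and 35.7% of all probes) and 9, 7, 14 and 6 with 1,4-DCB (11.4%, 13.1%, 18.4% and 13.9%).

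Rpa1 was called in all 8 contrasts, with differences of 0.46 to 0.58 for 1,2-DCB and 0.68 to 0.88 for 1,4-DCB. Rpa2 was called in 7 (0.89 to 1.10 for 1,2-DCB and 0.63 to 0.71 for 1,4-DCB), the exception being liver minus heart with 1,4-DCB. Rpa3 was lower in liver than in each other tissue with 1,2-DCB (-0.66 to -0.46) and was not called with 1,4-DCB. With 1,2-DCB the large and the small subunit of the trimer thus differed in opposite directions on TMM scaling, and with library totals no lower call of Rpa3 was left and the sign against ovary turned (0.05). Rfc4 was higher in all 4 contrasts with 1,4-DCB (0.56 to 0.85) and Rad18 in all 4 with 1,2-DCB (1.62 to 2.25). Parp9 was lower against kidney, lung and ovary with 1,2-DCB (-1.01 to -0.73).

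Single rats moved these counts with 1,4-DCB. Against kidney the count fell from 5 to 3 without rat F603, F604 or F605. Against heart it was 1 without rat F603 and 7 without F605, and against ovary 2 without F602, F603 or F604. The count of members called at 800 ppm in liver itself was 6 without F603 and 6 without F604. Over all concentrations, F604 was the 1,4-DCB liver library that correlated least with the others. Its median r was 0.974, the next lowest 0.979 and the median over libraries 0.992. In 1,2-DCB liver it was F605 at 500 ppm (0.934, next lowest 0.942, median 0.990).

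**Figure D5:**
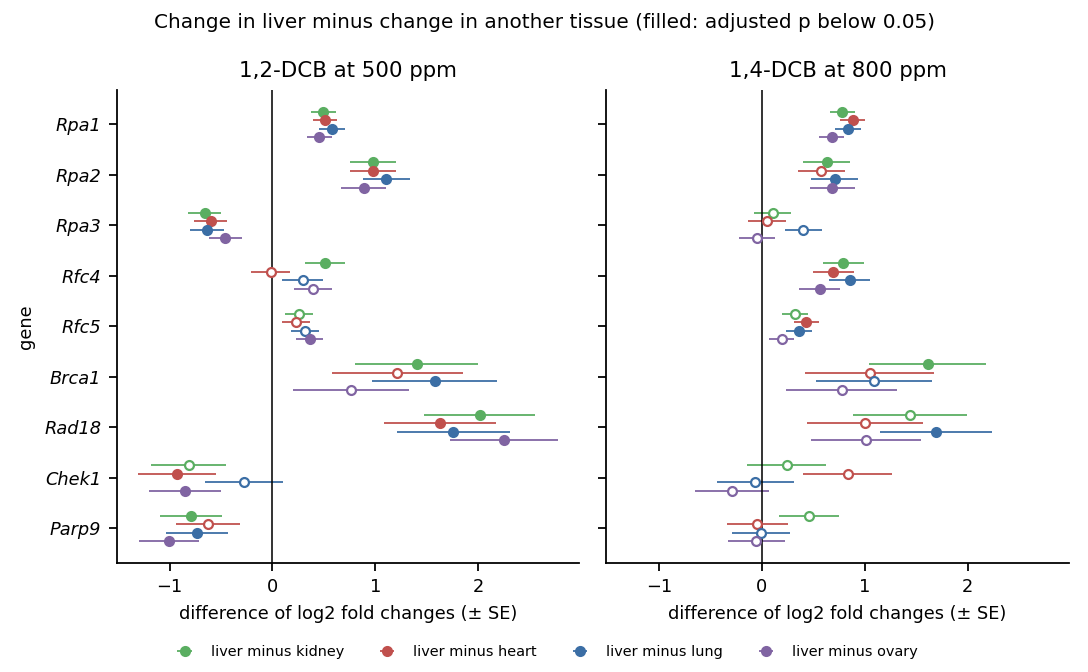
Change in liver minus the change in kidney, heart, lung or ovary (horizontal axis, difference of log2 fold changes) for 9 members (vertical axis) at the top concentration of each compound; points are estimates, bars ± 1 SE, and filled points have an adjusted p below 0.05. Rpa1 lies to the right of 0 in all 8 contrasts, and Rpa3 lies to the left in the 4 of 1,2-DCB.

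The isomers shared 2 concentrations, 1 and 10 ppm, and the difference between their changes was tested there in each tissue. Over 10 contrasts and 276 member tests no member was called by edgeR's quasi-likelihood test, 11 had an unadjusted p under 0.05, and limma voom called none. Of all probes 1.03% and 1.17% were called in heart at 1 and 10 ppm and 0% in the other contrasts. The lowest adjusted p was 0.344. The median half-width of the 95% interval was between 0.483 (lung) and 0.812 (heart) at 1 ppm. These intervals are not adjusted for the number of probes tested. Differences smaller than this, and some larger ones, could therefore go uncalled. Rfc5 in heart at 10 ppm differed by -0.35 (95% interval -0.62 to -0.09, adjusted p = 0.428) and Polb in liver at 10 ppm by -0.45 (-0.78 to -0.11, adjusted p = 0.999). These misses do not show that the isomers act alike. At the top concentrations, which differ, the members called with one isomer and not the other were Pola1, Parp2, Chek2, Rad51c and Rad9a (higher with 1,2-DCB) and Parp9, Parp14 and Chek1 (lower with 1,2-DCB), with the values given above.

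In unexposed rats the members were not evenly expressed between tissues. Levels here are CPM normalized over all tissues of a compound, a scale that differs from the CPM within a tissue used for the changes. Rpa1 was at 64.97 ± 4.69 in heart, 51.6 ± 3.48 in kidney, 31.7 ± 2.93 in liver, 27.4 ± 3.84 in ovary and 26.2 ± 2.82 in lung (mean ± SD, 1,2-DCB controls, n = 10, or 9 in kidney). Rpa2 was highest in ovary, at 10.8 ± 1.34, against 3.49 ± 1.22 to 6.62 ± 1.52 elsewhere. Chek1 was highest in liver, at 12.8 ± 3.27, against 4.55 ± 0.71 in ovary and 1.00 ± 0.50 to 1.745 ± 0.51 elsewhere. The place of liver in these orders rests on the scaling: Chek1 in ovary minus liver was -1.49 with TMM factors and 2.28 with library totals. Parp1 was highest in heart, at 69.5 ± 10.4, against 16.1 ± 2.68 to 35.5 ± 5.18 elsewhere.

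Ovary, where follicle cells divide, was set against each other tissue. In the 1,2-DCB controls 13 of 28 members were higher and 6 lower than in liver (43.3% and 36.3% of all probes), 14 and 3 against kidney (38.2% and 38.8%), 20 and 5 against heart (43.1% and 30.8%) and 19 and 3 against lung (39.5% and 33.2%). In the 1,4-DCB controls the counts were 12 and 10 (43.1% and 36%), 12 and 4 (39.6% and 38%), 21 and 4 (43.1% and 32.5%) and 15 and 5 (37.7% and 34.2%). The direction against liver rests on the scaling: with library totals the median of all probes moved from 0.18 to 3.91 and from 0.20 to 4.00, and all 28 members were higher in ovary (85.8% and 86.5% of all probes), so the 6 and 10 lower calls reversed. Rpa2, Rfc4, Lig1 and Chek2 were higher in ovary than in every other tissue, in both sets of controls and in all 3 scalings run (TMM, DESeq2 size factors and library totals). Against liver Rpa2 differed by 1.62 ± 0.13 in the 1,2-DCB controls and Chek2 by 1.69 ± 0.27 (adjusted p = 2.3e-24 and 7.2e-09). Parp1 and Rpa1 were lower in ovary than in heart in all 3 scalings (-1.70 ± 0.10 and -1.24 ± 0.07).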

How the data were processed

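TempO-Seq read counts of a rat panel were compared between exposed and control rats in 5 tissues. The deposited values are raw counts per probe, attenuation-adjusted by the authors per the labels. Attenuated probes were inferred from the counts: 104 probes had counts that were all multiples of a step larger than 1, and none was a member. Alignment used Bowtie 1.3.1, per the submitters' processing notes, and its build: not given in the sources used here. Libraries with a quality mark (9 of 399) were left out. Totals ranged from 1.2 to 69.8, in units of 1e+06 counts.

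Each of 10 fits (tissue and compound) used edgeR 4.0.16 in R 4.3.3, with TMM normalization, filterByExpr and robust quasi-likelihood tests, and Benjamini-Hochberg adjustment over all probes tested. A call needed an adjusted p below 0.05. SE is the log2 change divided by the square root of F. A joint fit per compound compared tissues. The same rat gave all 5 tissues, per the labels; same-rat deviations correlated at a median r of 0.096 to 0.202 between tissues.

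Alternatives were DESeq2 1.42.0, its size factors, limma 3.58.1 (voom), a filter at 20 CPM, no filter, fewer groups, probes divided by their count step, a rat block, the unused libraries and leaving out each rat. Library totals, the joint fits without a rat and the interferon motif were added after seeing the data. The members and lists were chosen with earlier results of these data known. The naming rule took up to 3 called members a role at 20 CPM or more for values per rat; that floor excluded nearly all members in liver, so it was dropped and more members were described, chosen after their values were seen. Results of 1 member are not reported here. Scripts were tested on simulated data.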

Additional observations from a re-analysis of the deposited data

Results flagged for a closer look

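The check was made once per call, so the controls of a gene called at more than 1 concentration entered more than once. In 8 of the 78 groups so counted, 1 rat lay far from the others of its group, where chance gives about 1 in 20. With 1,2-DCB these were Parp14 in kidney at 500 ppm (rat F602, 5.88 CPM), Rpa2 in liver at 250 ppm (F503, 0.615 CPM), Rpa3 in control liver (F4, 16.7 CPM) and Rpa3 in liver at 500 ppm (F601, 11.5 CPM). With 1,4-DCB they were, in liver, Rpa1 at 800 ppm (F604, 13.4 CPM), Brca1 at 800 ppm (F603, 1.07 CPM), Rad18 at 800 ppm (F603, 0.469 CPM) and Rpa3 in controls (F7, 17.3 CPM).

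The change in liver differed from that in another tissue, by the test of the difference itself, for 8 members against kidney, 7 against heart, 10 against lung and 10 against ovary with 1,2-DCB at 500 ppm. With 1,4-DCB at 800 ppm it did so for 5, 4, 6 and 4 members. These counts include members too low for the test in liver alone. With 1,2-DCB 21.3%, 18.6%, 18.2% and 20.5% of all probes were called higher in these contrasts. The lower calls were 18.8%, 20%, 20.7% and 20.9% of all probes. With 1,4-DCB the shares were 6.46%, 7.63%, 6.5% and 9.24% higher and 5.13%, 7.2%, 8.81% and 11.9% lower.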

How the results depend on the processing

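No call of a member against its controls reversed. Of the differences between tissues, the 6 (1,2-DCB) and 10 (1,4-DCB) members called lower in control ovary than in liver were called higher with library totals. Low counts limit the liver results. The filter at 20 CPM left only Rad21 tested in liver with 1,2-DCB, so none of the 18 members called at 500 ppm was tested. The count there was 1, a call of Rad21, which the main fit did not call. The count was 0 in 1,2-DCB heart and lung at 500 ppm and in 1,2-DCB liver at 250 ppm. It was also 0 in 1,4-DCB liver at 800 and 400 ppm and in the 39 other comparisons (1 otherwise). Under it the tissue differences were 3, 2, 2 and 3 members (kidney, heart, lung, ovary) with 1,2-DCB and 2 (kidney), 2 (heart) and 1 (ovary) with 1,4-DCB, and the control ovary counts against liver, kidney, heart and lung were 4, 3, 6 and 3, and 4, 3, 6 and 4. With library totals the counts were 3 in 1,2-DCB kidney and 0 in heart at 500 ppm, 1 in 1,4-DCB lung at 800 ppm, 13 in 1,2-DCB liver at 250 ppm, 2 in 1,4-DCB liver at 400 ppm and 4 in 1,2-DCB heart at 1 ppm. The tissue differences were then 18, 18 and 18 (kidney, heart, lung) and 9, 7 and 14, and the control ovary minus kidney count was 26 with 1,4-DCB. With only the exposed group and its controls, 1 member was called in each ovary at the top concentration, 0 in 1,4-DCB liver at 400 ppm and 0 in the 39 others. limma voom called 1 in 1,4-DCB ovary at 800 ppm and gave differences of 3, 2 and 2 (kidney, heart, ovary). Size factors, no filter and division by the step each gave 0 in 1,4-DCB liver at 400 ppm. With the unused libraries 6 members were called in 1,4-DCB lung at 400 ppm, 4 higher and 2 lower, against 0 without them. In each case, apart from the filter and the fits on fewer samples, the cause was not tested.

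Leaving out 1 rat gave 16 to 18 in 1,2-DCB liver, 0 to 2 in kidney, 0 to 1 in heart and 1 in lung at 500 ppm, 5 to 6 in liver at 250 ppm, 6 to 11 in 1,4-DCB liver and 0 to 1 in ovary at 800 ppm, and 0 to 1 in liver at 400 ppm. The kidney count was 0 without control F8 and 2 without F601. The tissue differences were 6 to 9, 5 to 7, 7 to 9 and 7 to 9 with 1,2-DCB, and 3 to 4, 1 to 7, 4 to 6 and 2 to 4 with 1,4-DCB. With the rat as a replicate block they were 10, 7, 12 and 10, and 5, 5, 6 and 4, and the control ovary counts were 19, 17, 26 and 23, and 20, 16, 25 and 18, all within 1.5 times.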
